A study of Mus musculus with 4 samples.

Results

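A set of 10 genes that restrain signalling from the T cell receptor (TCR) was read on the 4 arrays: the E3 ubiquitin ligase genes Cbl, Cblb, Itch, Rnf128 and Peli1, the phosphatase genes Ubash3a, Ptpn22 and Ptpn6, and the diacylglycerol kinase genes Dgka and Dgkz. They were chosen by name, with earlier results of these data known. Counts of members set beside shares of all genes below therefore describe the set and are no test. Every probe whose gene name in the scanner files was one of the 10 was kept. This gave 24 of 56605 probes and 10 of 27144 named genes. Naive CD4+ T cells and cells after 3 h under conditions that induce regulatory T cells (iTreg) were each measured in 2 genotypes labelled WT and Nr4a-TKO, with 1 array per condition and no replicate. The question of the design was how cells with and without the Nr4a nuclear receptors differ before culture and at 3 h. No difference below has a test, because no condition was repeated.

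The Nr4a-TKO cells carried floxed Nr4a1 and Nr4a2 alleles together with Nr4a3-/-, on a C57BL/6J background, and the Cre that recombined the floxed alleles is not given in the sources used here. Their donors carried Ly5.2 and a Foxp3 hCD2-hCD52 reporter allele, and their marrow was mixed 1:1 with WT Ly5.1 marrow before transfer. The WT cells came from chimeras that received WT Ly5.2 marrow alone. All recipients were irradiated Rag2-/- mice, and the mouse lines were used at 6 to 8 weeks of age in both sexes. Genotype and kind of chimera therefore cannot be told apart. Naive cells were sorted from spleen and lymph nodes as CD4+, CD25low, CD44low and Foxp3-, among other markers. The iTreg cells were these naive cells after 3 h on plates coated with 2 µg/ml anti-CD3, with 0.5 µg/ml anti-CD28, antibodies against IFN-γ and IL-4, 10 ng/ml IL-2 and TGF-β1 at 0.2 or 0.5 ng/ml. Which of the TGF-β1 doses each array had is not given. The number of mice behind each array is not given either.

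TCR signalling begins when the kinase Lck phosphorylates the CD3 and zeta chains and ZAP-70 docks on them, which leads through LAT and phospholipase C-γ1 to calcium release and to diacylglycerol. The restraining enzymes act at separate steps of this cascade. Cbl and Cbl-b attach ubiquitin to phosphorylated receptor chains, kinases and adaptors, Itch and GRAIL (the product of Rnf128) are ligases known from T cell anergy, and Peli1 targets the NF-κB subunit c-Rel. UBASH3A, also called Sts-2, belongs to a small family of phosphatase-like proteins that restrain ZAP-70, while PTPN22 and SHP-1, the product of Ptpn6, are tyrosine phosphatases of Lck, ZAP-70 and their partners. The diacylglycerol kinases convert diacylglycerol to phosphatidic acid and so limit RasGRP1 and PKC-θ.

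The arrays covered all 10 genes. All 24 probes were well above background on all 4 arrays, each printed as 1 spot, with 1 to 4 probes per gene. Over all probes, 65.0% to 67.7% were well above background on an array. The lowest log2 values so called were 3.07 to 3.45 by array. Levels are log2 intensities after background correction and quantile normalization over the 4 arrays, and a gene is given by its probe with the highest mean. Repeat spots of probes printed at least 5 times scattered with a median SD of 0.11 to 0.13 per array. Carried over to the log2 difference of a pair of arrays this comes to 0.18, called the array SD here, and it leaves out the scatter between mice and between cultures.

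The brightest probes of Nr4a1 and Nr4a2 went against the genotype labels. The brightest Nr4a1 probe read 7.05 on the array labelled WT naive T, 8.39 on Nr4a-TKO naive T, 11.34 on WT iTreg and 11.82 on Nr4a-TKO iTreg. The brightest Nr4a2 probe was also higher on the array labelled Nr4a-TKO at 3 h, at 10.21 against 8.83. The 3 probes of Nr4a3 disagreed: at 3 h they were between -1.86 and 0.19 apart, Nr4a-TKO minus WT, with the brightest at 0.19 and their mean at -1.05, so the mean went with the label. Whether any of these probes lies in a deleted part was not analysed here, so genotypes below are those of the labels. The T cell markers Cd4 and Cd3e were well above background on all 4 arrays, but so were all 8 B cell markers and, per array, 5 or 6 of 6 myeloid markers, so detection alone does not single out T cells. All 8 activation genes were higher at 3 h in both genotypes.

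Most of the 10 restraining genes were lower at 3 h than in naive cells. On the arrays labelled WT, 7 of 10 were lower and 3 higher, with a median log2 change of -0.79, where the median over all genes was -0.06. On the arrays labelled Nr4a-TKO the count was again 7 lower and 3 higher, with a median of -0.67 against -0.02 over all genes. Past a 2-fold threshold, Cblb and Ptpn22 were higher in WT, 2 of 10 where 8.57% of 19589 genes were, and Ubash3a and Dgka were lower, 2 of 10 where 9.01% of genes were. In Nr4a-TKO no member was more than 2-fold higher, where 8.01% of 20001 genes were, and Ubash3a, Dgka and Dgkz were more than 2-fold lower, 3 of 10 where 8.42% of genes were. In bulk RNA, fewer cells with a transcript and less of it per cell cannot be told apart.

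**Figure D1:**
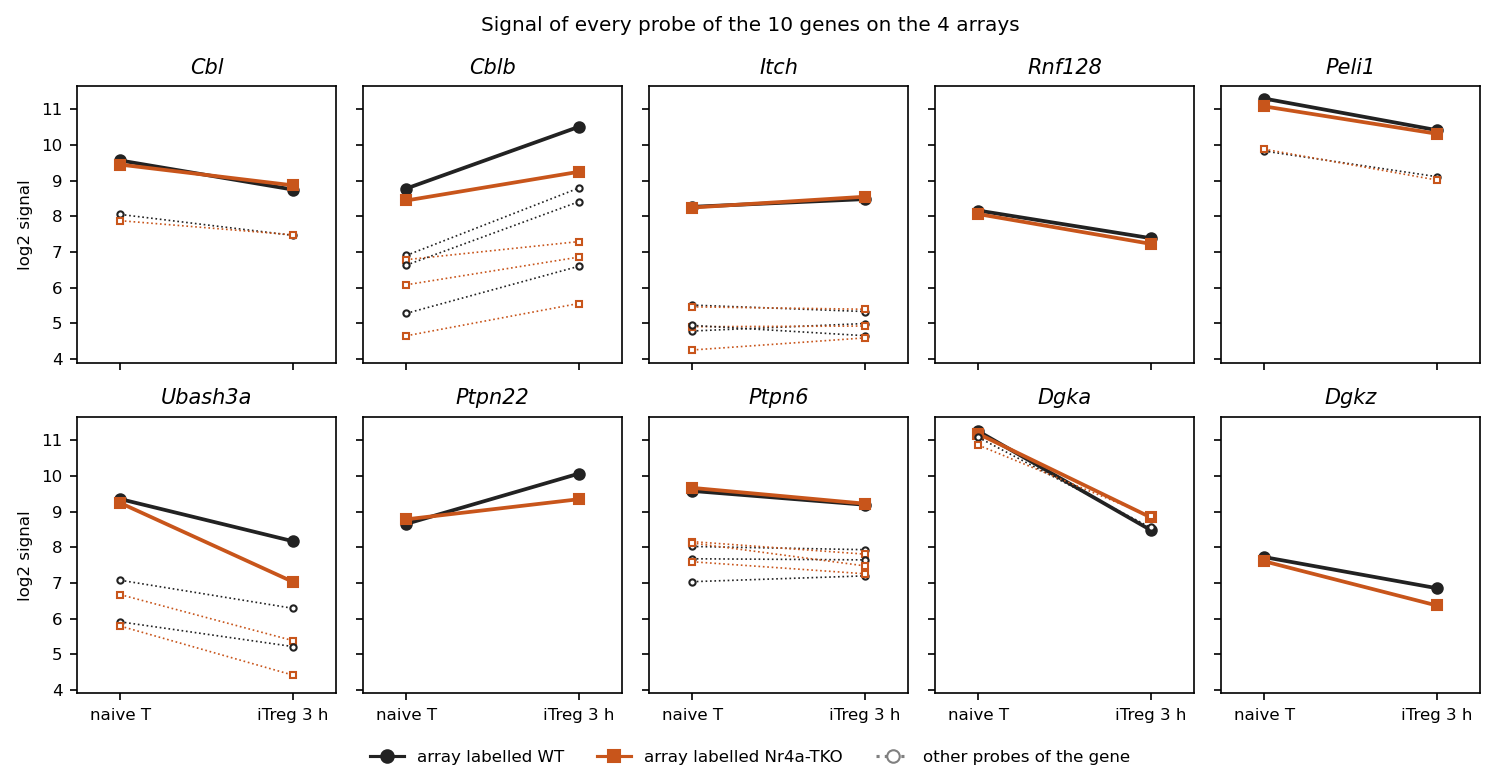
Log2 signal of all 24 probes of the 10 genes (vertical axis) in naive T cells and at 3 h of iTreg culture (horizontal axis), 1 array per point and no error bars. Black circles are arrays labelled WT and orange squares arrays labelled Nr4a-TKO, filled symbols show the probe that stands for the gene and open ones its other probes. The lines of the 2 genotypes are further apart at 3 h than in naive cells in all 4 Cblb probes, all 3 Ubash3a probes and the Ptpn22 probe.

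Between the genotypes, the probes that stand for the 10 genes lay close together in naive cells, and at 3 h a few were well apart. In naive cells all 10 differences of these probes, Nr4a-TKO minus WT, lay between -0.34 and 0.13 on the log2 scale. Other probes reached -0.69 (Itch), -0.63 and -0.55 (Cblb), -0.40 (Ubash3a) and 0.56 (Ptpn6). None of the 10 genes passed 2-fold, where 1.9% of 19497 genes did so upwards and 1.63% downwards. At 3 h, Cblb and Ubash3a were past 2-fold and lower in the array labelled Nr4a-TKO, 2 of 10 where 1.91% of 19821 genes were. None was past 2-fold and higher, where 1.77% of genes were. Ptpn22 came next at -0.72 and Dgkz at -0.48. The 6 other members lay between -0.16 and 0.36. Each WT change over 3 h was also subtracted from the Nr4a-TKO one. In the probes that stand for the genes, only Ubash3a passed 2-fold, at -1.03, with Cblb at -0.92 and Ptpn22 at -0.84. That was 1 of 10 where 2.42% of 18789 genes did in that direction. None passed in the other, where 2.4% did. By probe, 2 of 4 Cblb probes and 1 of 3 Ubash3a probes passed. Ubash3a passed in 4 of 7 alternative processings, which include the filter settings described below that could not change it. They also include the processed intensity scaled to the 75th percentile and the authors' value table, which hold nearly the same values.

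**Figure D2:**
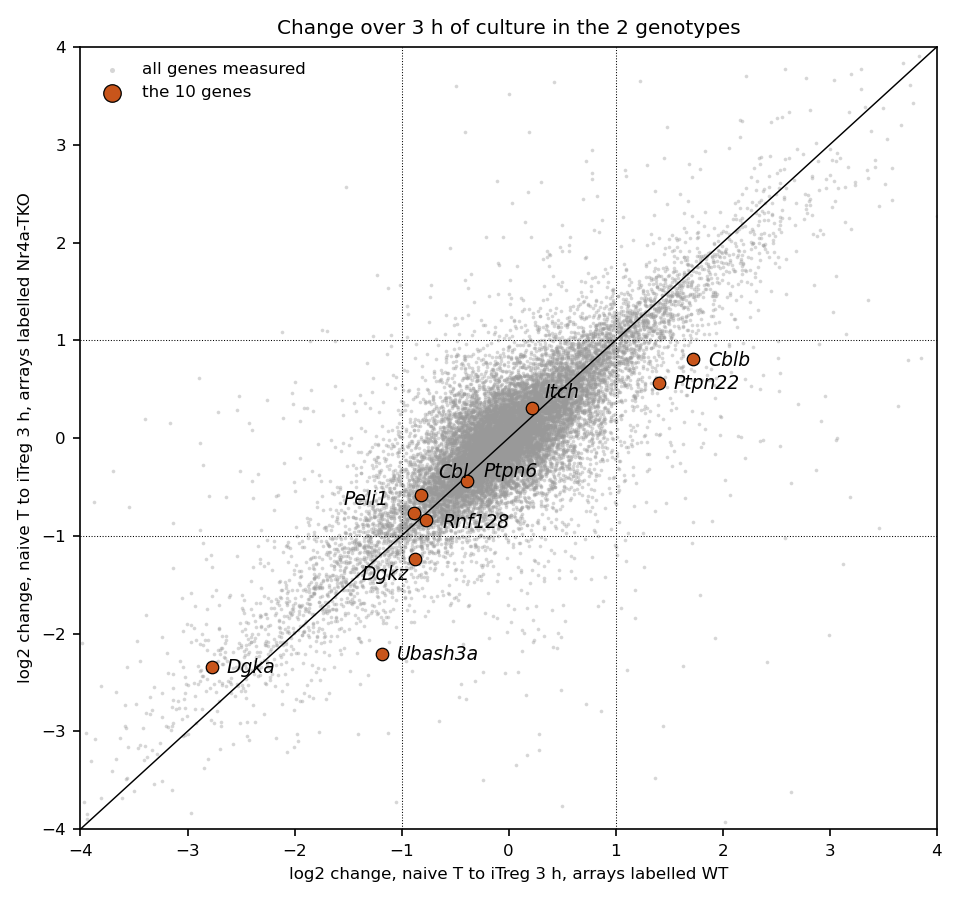
Log2 change from naive T to 3 h of iTreg culture on the arrays labelled WT (horizontal) and Nr4a-TKO (vertical), for all genes measured in both (grey) and the 10 genes (orange). The solid line marks equal change and dotted lines mark 2-fold. Cblb at 1.73 and 0.80, Ptpn22 at 1.41 and 0.56 and Ubash3a at -1.18 and -2.21 lie below the line of equal change, and Dgka at -2.77 and -2.34 lies above it. A few genes beyond 4 log2 units are outside the axes.

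Among the E3 ligases, Cblb stood apart. Cbl-b is the ligase best known for setting the need for CD28 co-stimulation. The Cblb probe read 8.78 on the array labelled WT naive T, 8.45 on Nr4a-TKO naive T, 10.51 on WT iTreg and 9.25 on Nr4a-TKO iTreg. Both iTreg arrays were above both naive arrays, and WT iTreg was the highest. The level at 3 h was 3.31-fold that of naive cells in WT and 1.75-fold in Nr4a-TKO, and at 3 h the array labelled Nr4a-TKO was 2.39-fold lower than that labelled WT. In order of level, the naive array of Nr4a-TKO was the lowest, and the naive arrays differed by 0.34, more than the array SD of 0.18.

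All 4 Cblb probes showed the same order of changes. They lie on mm9 at chr16:52208004-52208063, chr16:52205429-52205488, chr16:52050959-52051018 and chr16:52050899-52050958, on the plus strand. The first pair is assigned in the files to the Cblb messenger RNA NM_001033238, and the second pair, which stands next to each other some way upstream, to the clone AK045005. The change over 3 h was 1.32 to 1.89 in WT, past 2-fold for 4 of 4 probes, and 0.51 to 0.91 in Nr4a-TKO, past 2-fold for 0 of 4. At 3 h all 4 were past 2-fold lower in the array labelled Nr4a-TKO, with differences from -1.04 to -1.55. The largest came from a probe of the clone. In naive cells all 4 were also lower in the array labelled Nr4a-TKO. These naive differences were -0.34 and -0.63 for the probes of the messenger RNA and -0.12 and -0.55 for those of the clone. Whether the clone belongs to the same transcript was not analysed here.

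The promoter of Cblb is shown because this gene was higher at 3 h, with the smaller change on the arrays labelled Nr4a-TKO. Windows of 250 bases before to 50 after each start site were taken from RefSeq, build GRCm38.p6, and 9 of the 10 genes had 1 or more, 14 windows in all. Each was searched on both strands for the letters of 7 motifs: the Nr4a element NBRE (AAAGGTCA), Ets (AGGAAG), AP-1 (TGANTCA), NFAT (GGAAAA), Egr (GCGTGGGCG), Foxo (GTAAACA) and CRE (TGACGTCA). The paper writes the Nr4a sequence as AAA(T/G)GTCA, and its form with T was not searched here. Ets and NFAT matches can overlap in the letters GGAA. Of 32851 promoter windows, 1.51% held the NBRE, 35.4% Ets, 7.81% AP-1, 23.4% NFAT, 0.612% Egr, 3.65% Foxo and 1.79% CRE. The Cblb window lies at chr16:52031299-52031598 on the plus strand, and capitals mark its one match, an Ets match that begins at position -147 from the start site and reads on the opposite strand.
Cblb promoter: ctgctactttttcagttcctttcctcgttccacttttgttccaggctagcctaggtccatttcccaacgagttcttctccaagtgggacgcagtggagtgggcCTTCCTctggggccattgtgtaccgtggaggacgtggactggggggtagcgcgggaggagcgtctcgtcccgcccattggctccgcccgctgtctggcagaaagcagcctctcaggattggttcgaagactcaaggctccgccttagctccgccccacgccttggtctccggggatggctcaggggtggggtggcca
A match is a description of letters and not a binding site.

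The other ligase genes lay close together between the genotypes in the probes that stand for them, with differences of -0.22 to -0.02 in naive cells and -0.16 to 0.12 at 3 h. Cbl, the close relative of Cblb, went the other way over 3 h: its probe read 9.57 on the array labelled WT naive T, 9.45 on Nr4a-TKO naive T, 8.75 on WT iTreg and 8.87 on Nr4a-TKO iTreg. Both naive arrays were above both iTreg arrays, and the genotypes differed by -0.12 in naive cells and 0.12 at 3 h, less than the array SD. A second Cbl probe had changes of -0.59 in WT and -0.40 in Nr4a-TKO. Its window held no match to any of the 7 motifs.

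Peli1 read 11.30 on the array labelled WT naive T, 11.08 on Nr4a-TKO naive T, 10.42 on WT iTreg and 10.32 on Nr4a-TKO iTreg. The naive arrays were the higher ones in both of its probes, with changes of -0.88 and -0.72 in WT and -0.77 and -0.86 in Nr4a-TKO. At 3 h the genotypes differed by -0.10 and -0.09, less than the array SD, and in naive cells by -0.22 and 0.05. Rnf128, read by 1 probe, gave 8.16 on the array labelled WT naive T, 8.06 on Nr4a-TKO naive T, 7.39 on WT iTreg and 7.23 on Nr4a-TKO iTreg. Its change was -0.77 in WT and -0.83 in Nr4a-TKO, and the genotypes were within the array SD of each other at both stages.

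Itch changed little. Its brightest probe read 8.27 on the array labelled WT naive T, 8.25 on Nr4a-TKO naive T, 8.48 on WT iTreg and 8.55 on Nr4a-TKO iTreg. That probe is assigned in the files to a different transcript from the other 3, which are far dimmer, at 4.25 to 5.51. Whether all 4 read the same messenger RNA was not analysed here. The 4 Itch probes changed by -0.29 to 0.22 in WT and by -0.07 to 0.34 in Nr4a-TKO and did not share a direction. At 3 h the genotypes differed by -0.07 to 0.07 over the 4 probes. In naive cells the dimmest of them was at -0.69 and the other 3 between -0.05 and 0.12.

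**Figure D3:**
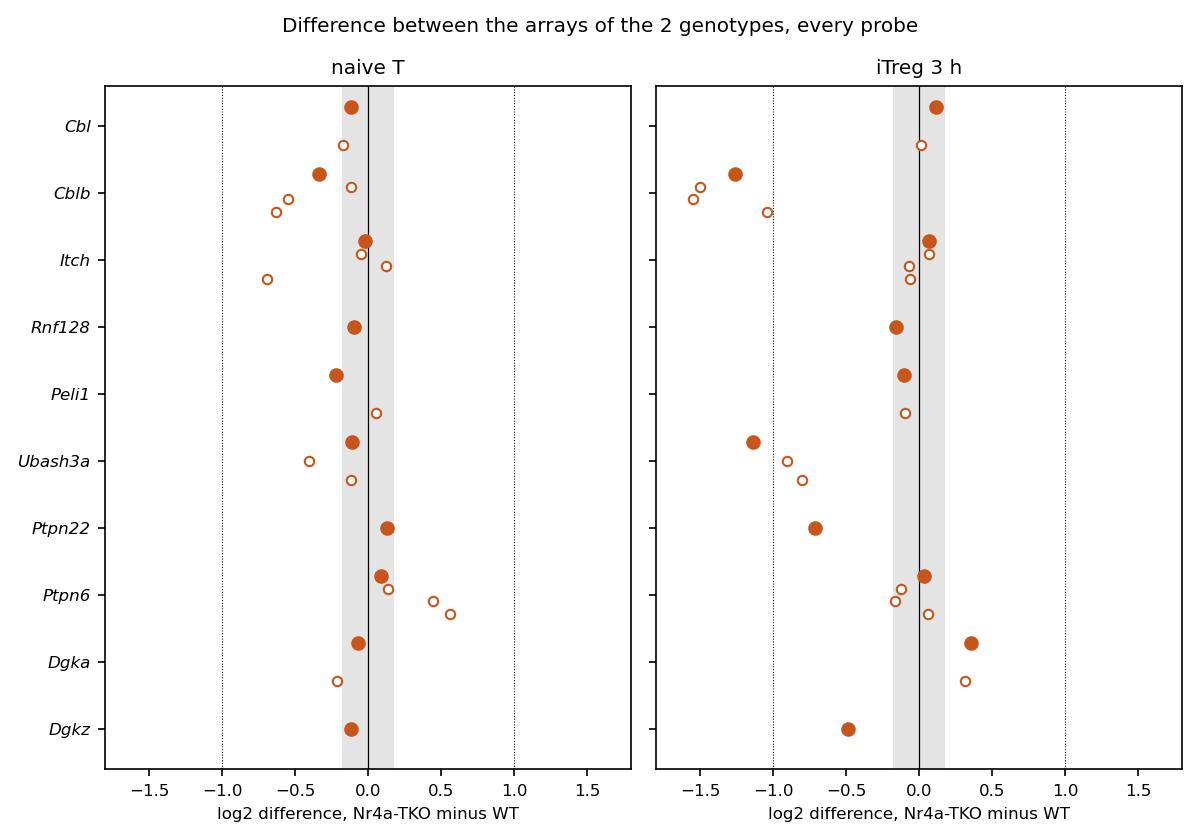
Log2 difference, array labelled Nr4a-TKO minus array labelled WT, in naive T cells (left) and at 3 h of iTreg culture (right) for each of the 24 probes, and filled points are the probes that stand for the genes. The grey band is the array SD of 0.18 for such a difference and the dotted lines mark 2-fold. At 3 h the Cblb probes lie between -1.04 and -1.55, the Ubash3a probes between -0.80 and -1.14 and Ptpn22 at -0.72.

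Of the phosphatase genes, Ubash3a was lower at 3 h and lowest on the array labelled Nr4a-TKO. Its brightest probe read 9.35 on the array labelled WT naive T, 9.24 on Nr4a-TKO naive T, 8.17 on WT iTreg and 7.03 on Nr4a-TKO iTreg. The naive arrays differed by less than the array SD, and every further step in this order was larger than 1 log2 unit. From naive cells to 3 h the level was 2.26-fold lower in WT and 4.61-fold lower in Nr4a-TKO, and at 3 h the array labelled Nr4a-TKO was 2.20-fold below that labelled WT. Its 3 probes, at chr17:31378376-31378435, chr17:31390307-31390364 and, across an interval longer than the probe, chr17:31350812-31352099 (mm9, plus strand), had changes of -1.18 to -0.69 in WT and of -2.21 to -1.29 in Nr4a-TKO. At 3 h they differed between the genotypes by -0.80 to -1.14, and 1 of 3 passed 2-fold. With all probes averaged the difference no longer passed 2-fold, and the same held for the change in WT (-0.89).

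Ptpn22, whose product PEP works together with the kinase Csk against Lck, followed the pattern of Cblb. Its probe, at chr3:103716092-103716151 (mm9, plus strand), read 8.66 on the array labelled WT naive T, 8.78 on Nr4a-TKO naive T, 10.06 on WT iTreg and 9.35 on Nr4a-TKO iTreg. The naive arrays were within the array SD of each other and both iTreg arrays lay above them, WT iTreg the highest. At 3 h the level was 2.65-fold that of naive cells in WT and 1.48-fold in Nr4a-TKO, and the array labelled Nr4a-TKO was 1.64-fold below that labelled WT. No second probe was there to repeat this.

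The promoters of Ptpn22 and Ubash3a are shown because these genes went opposite ways over 3 h, and at 3 h both were lower in the array labelled Nr4a-TKO. Ptpn22 has 2 start sites in the table, with windows at chr3:103859545-103859844 and chr3:103860027-103860326, and Ubash3a has 1, at chr17:31207816-31208115, all on the plus strand of GRCm38.p6. Capitals mark Ets matches, at position -9 in the first Ptpn22 window and -94 in the second. The Ubash3a window held none of the 7 motifs.
Ptpn22 promoter 1: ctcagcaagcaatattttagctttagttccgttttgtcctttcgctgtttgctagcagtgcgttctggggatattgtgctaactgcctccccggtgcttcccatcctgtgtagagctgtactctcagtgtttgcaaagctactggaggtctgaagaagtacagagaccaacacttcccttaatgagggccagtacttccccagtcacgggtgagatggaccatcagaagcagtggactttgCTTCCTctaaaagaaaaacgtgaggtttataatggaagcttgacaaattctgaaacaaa
Ptpn22 promoter 2: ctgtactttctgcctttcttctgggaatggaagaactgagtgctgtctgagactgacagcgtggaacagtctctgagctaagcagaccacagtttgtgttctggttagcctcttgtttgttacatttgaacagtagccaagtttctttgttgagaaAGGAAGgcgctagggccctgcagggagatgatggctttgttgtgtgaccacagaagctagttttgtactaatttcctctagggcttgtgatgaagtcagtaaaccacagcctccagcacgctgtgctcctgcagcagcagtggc
Ubash3a promoter: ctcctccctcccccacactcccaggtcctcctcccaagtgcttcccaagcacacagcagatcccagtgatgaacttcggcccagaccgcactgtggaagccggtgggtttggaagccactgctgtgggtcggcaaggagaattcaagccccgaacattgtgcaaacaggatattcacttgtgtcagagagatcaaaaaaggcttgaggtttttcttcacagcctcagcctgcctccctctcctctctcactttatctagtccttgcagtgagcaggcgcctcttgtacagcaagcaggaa
Across the 9 genes with a window, 6 held an Ets match (Cblb, Rnf128, Ptpn22, Ptpn6, Dgka and Dgkz) and 2 an NFAT match (Rnf128 and Dgka), and no window held the NBRE, AP-1, Egr, Foxo or CRE letters. These counts are per gene, with 1 to 4 windows each. The shares over all promoters, 35.4% for Ets and 23.4% for NFAT, are per window, so the units differ.

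Ptpn6, which encodes SHP-1, changed little. Its brightest probe read 9.58 on the array labelled WT naive T, 9.66 on Nr4a-TKO naive T, 9.19 on WT iTreg and 9.22 on Nr4a-TKO iTreg. The genotypes differed by less than the array SD at both stages in this probe. Its 4 probes changed by -0.39 to 0.16 in WT and by -0.64 to -0.34 in Nr4a-TKO, where they shared a direction. In naive cells all 4 were higher in the array labelled Nr4a-TKO, by 0.09 to 0.56.

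Both diacylglycerol kinase genes were lower at 3 h, and they leaned opposite ways between the genotypes. Dgka read 11.25 on the array labelled WT naive T, 11.18 on Nr4a-TKO naive T, 8.48 on WT iTreg and 8.84 on Nr4a-TKO iTreg. Both iTreg arrays were far below both naive arrays. It was 6.82-fold lower at 3 h in WT and 5.06-fold lower in Nr4a-TKO, at percentile 0.83 of the changes of all genes in WT and 1.27 in Nr4a-TKO. The other Dgka probe had log2 changes of -2.52 and -1.99. At 3 h both probes were higher in the array labelled Nr4a-TKO, by 0.36 and 0.32, and the naive arrays differed by -0.07 and -0.21. The probe for Dgkz, the other main isoform of T cells, read 7.72 on the array labelled WT naive T, 7.60 on Nr4a-TKO naive T, 6.85 on WT iTreg and 6.37 on Nr4a-TKO iTreg. It was 1.83-fold lower at 3 h in WT and 2.36-fold lower in Nr4a-TKO, and the genotypes differed by -0.12 in naive cells and -0.48 at 3 h. Dgka has 4 start sites in the promoter table, 3 of them with an Ets match and the other with an NFAT match. Windows 2 and 3 overlap and share 1 Ets match.

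Relatives of these enzymes were read from a list of 23 genes, of which 21 were measured and Peli2 and Dgkk were not well above background on any array. In WT, Ndfip1 was more than 2-fold higher at 3 h (1.63), and Smurf2 (-1.33) and Nedd4l (-1.10) were more than 2-fold lower. Ndfip1 is an adaptor that activates Itch and its relatives, which include Nedd4l and Smurf2. In Nr4a-TKO, Ubash3b (1.42), Ndfip1 (1.14) and Cbll1 (1.01) were more than 2-fold higher and none lower. The shares of all genes were 8.57% higher and 9.01% lower in WT, and 8.01% and 8.42% in Nr4a-TKO. Nedd4l in WT and Cbll1 in Nr4a-TKO passed 2-fold in 4 of 7 alternative processings. No relative was more than 2-fold apart between the genotypes at either stage in the probe that stands for it. Of all genes, 1.63% to 1.91% were, by stage and direction. Another Dgkb probe was at -1.23 at 3 h, where the brightest gave -0.23. The paralogue pair Ubash3a and Ubash3b moved in opposite directions. Ubash3b, which encodes Sts-1, read 9.34 on the array labelled WT naive T, 9.32 on Nr4a-TKO naive T, 9.99 on WT iTreg and 10.74 on Nr4a-TKO iTreg, so that at 3 h its difference between the genotypes was 0.75 where that of Ubash3a was -1.14. Its other probe had changes of 1.35 in WT and 1.31 in Nr4a-TKO and gave 0.74 between the genotypes at 3 h. In naive cells that probe gave 0.78 where the brighter one gave -0.02. Of the diacylglycerol kinase relatives, 7 of 8 were measured and none passed 2-fold in the probe that stands for it. Dgkb passed 2-fold in WT in 2 of 7 alternative processings. Its change in Nr4a-TKO was 0.77 by the brightest probe and -1.54 by another.

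Other phosphatases, adaptors and enzymes that act on TCR signalling made up a list of 28 genes, all measured. The list was drawn up for restraint of the TCR, but whether each gene only restrains it was not tested. At 3 h, 3 were more than 2-fold higher and 9 lower in WT, and 5 higher and 6 lower in Nr4a-TKO. Of all genes, 8.57% were higher and 9.01% lower in WT, and 8.01% and 8.42% in Nr4a-TKO. The GTPase-activating protein gene Rasa3 had changes of -2.97 in WT and -1.59 in Nr4a-TKO, and the Notch-related ligase gene Dtx1 had changes of -1.87 and -2.64. Dtx1 was read by 1 probe, dim on Nr4a-TKO iTreg at 4.30, where the lowest value well above background was 3.07. Under the alternative processings its change in Nr4a-TKO ran from -3.17 to -1.31. Its difference between the genotypes at 3 h ran from -1.20 to -0.29. Among transmembrane adaptor genes, Sit1 had WT and Nr4a-TKO changes of -1.85 and -1.48, and Pag1, whose product recruits Csk, of -1.67 and -1.22. Sit1 passed 2-fold in 6 of 7 alternative processings in either genotype, and Pag1 in 6 of 7 in WT, with -0.77 in the other, and 4 of 7 in Nr4a-TKO, where its smallest change was -0.48. Sla, an adaptor that works with Cbl on the receptor, was higher at 3 h, by 1.76 in WT cells and 1.16 in Nr4a-TKO cells. Between the genotypes, Dok4 was more than 2-fold higher in naive cells labelled Nr4a-TKO (1.43) and changed in opposite directions over 3 h, by 0.80 in WT and -0.94 in Nr4a-TKO. At 3 h the difference of Rasa3, Nr4a-TKO minus WT, was 1.43, but its 3 probes ranged from 0.20 to 1.43.

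The proteins on which these enzymes act were read from a list of 14 genes, all measured. In WT, Rel (2.31), Zap70 (1.69) and Nfatc1 (1.63) were more than 2-fold higher at 3 h and 3 genes lower, with Pik3r1 (-2.08) and Cd247 (-1.53) the lowest. The 4 Cd247 probes ranged from -1.53 to -0.22 in WT and from -1.16 to 0.60 in Nr4a-TKO, and their mean in WT, -0.87, did not pass 2-fold. In Nr4a-TKO 2 genes of the list were higher and 4 lower. The shares of all genes were 8.57% higher and 9.01% lower in WT, and 8.01% and 8.42% in Nr4a-TKO. Prkcq, the gene of PKC-θ, changed by -0.79 in WT and by -1.62 in Nr4a-TKO. Its 3 probes differed by -0.88 to -0.96 between the genotypes at 3 h. Lat, named because it was the only gene of this list more than 2-fold apart between the genotypes and chosen after its values were seen, read 10.22 on the array labelled WT naive T, 10.87 on Nr4a-TKO naive T, 9.80 on WT iTreg and 10.94 on Nr4a-TKO iTreg. It was 2.21-fold higher at 3 h on the array labelled Nr4a-TKO, a difference carried by 1 probe. Of all genes, 1.77% were more than 2-fold higher there.

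**Figure D4:**
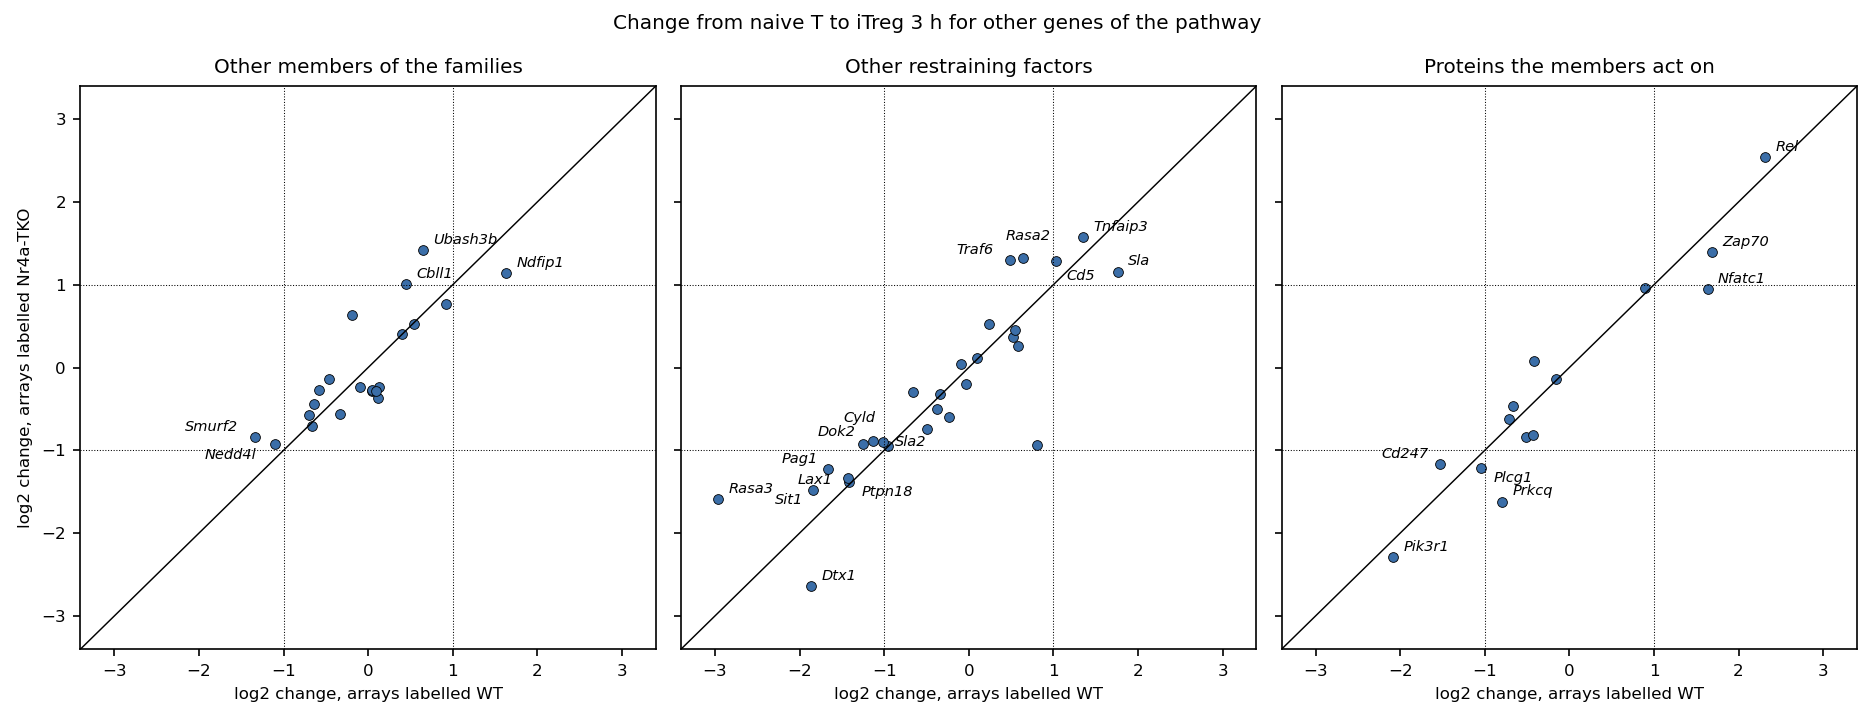
Log2 change from naive T to 3 h of iTreg culture on the arrays labelled WT (horizontal) and Nr4a-TKO (vertical) for 21 relatives of the 10 genes (left), 28 other phosphatases, adaptors and enzymes listed for restraint of the TCR (middle) and 14 proteins that the 10 act on (right). The solid line marks equal change, dotted lines mark 2-fold, and genes past 2-fold on either axis are named. Ubash3b (0.65 and 1.42) and Rasa3 (-2.97 and -1.59) lie above the line of equal change and Dtx1 (-1.87 and -2.64) and Prkcq (-0.79 and -1.62) below it.

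Markers of other cells also differed between the genotypes at 3 h. All 8 B cell markers were higher at 3 h in the array labelled Nr4a-TKO, by 0.07 to 1.34, and 7 of 8 in naive cells. Their summed intensity on the arrays labelled WT was 1279 in naive cells and 904 at 3 h, and on those labelled Nr4a-TKO 1783 and 1458, with none at background. The summed intensity of the myeloid markers was 37880 and 34967 on the arrays labelled WT and 39834 and 34673 on those labelled Nr4a-TKO, and most of it came from the Itgam and Csf1r probes. At 3 h 2 of the 6 myeloid markers were above 0, Nr4a-TKO minus WT, and 4 below. The naive T markers Cd4 (-0.48), Cd3e (-0.35), Ccr7 (-0.63), Il7r (-0.07), Lef1 (-0.21) and Tcf7 (-0.20) were all lower at 3 h in the array labelled Nr4a-TKO. Of 4 markers of regulatory T cells, 3 were below 0 in naive cells and 2 at 3 h, over -1.37 to 0.84 and -1.36 to 0.16. Their defining gene Foxp3 was at -1.31 and -1.36. Of 5 memory markers, 4 were below 0 in naive cells and 3 at 3 h, over -2.17 to 0.23 and -0.58 to 1.56, with Cd44 the highest at both stages. The part of these cells in the differences of the 10 genes was not tested.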

How the data were processed

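The authors hybridised Cy3-labelled cRNA to single-colour Agilent arrays and deposited, from Agilent Feature Extraction 11.5.1.1, the spot intensity, local background, processed intensity and flags of each array, with probe coordinates on mm9. They also deposited log2 values, for which their methods name RMA in GeneSpring. These were found to equal the log2 processed intensity less the 75th percentile of each array (column medians -2.16, -2.17, -2.33 and -2.29), so scale, centring and direction are known. Here, limma 3.58.1 in R 4.3.3 gave normexp background correction with an offset of 0, quantile normalization over the 4 arrays, log2, and the mean over spots, leaving out control spots and 115 to 160 flagged spots per array. Python 3.11.15 with pandas 2.3.3 was used after that. Each gene was given by the probe whose mean over the arrays was highest. A difference needed 1 of its 2 arrays well above background, the other raised to that array's lowest such value. The threshold was 2-fold, as in the study. Of 56605 probes, 10293 had no gene name. Names came from the files and the RefSeq table of GRCm38.p6.

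The members and lists were chosen with earlier results of these data known. Genes named were the 10 members, and per list up to 6 past 2-fold by size of difference, the targeted genes and defining markers. The counting was tested on simulated data. The 4 arrays limit the precision, and no p-value is given. The alternatives were the processed intensity scaled to the 75th percentile, normexp with an offset of 50, uncorrected background, the authors' value table, averaging all probes, a stricter filter, no filter, and thresholds of 1.5-fold and 3-fold. A marker of the list of naive T cells is not reported here.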

Additional observations from a re-analysis of the deposited data

Results flagged for a closer look

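In 4 of the 10 genes the difference between the genotypes pointed one way in naive cells and the other way at 3 h of iTreg culture. The log2 difference, array labelled Nr4a-TKO minus array labelled WT, went from 0.13 to -0.72 for Ptpn22, from -0.072 to 0.36 for Dgka, from -0.12 to 0.12 for Cbl and from -0.021 to 0.067 for Itch. Each naive value is within the array SD of 0.18, and so are both values of Cbl and Itch. With 1 array per condition the change of direction was not tested.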

How the results depend on the processing

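The direction of each of the 10 genes in each comparison was kept under the alternatives, with few exceptions: Itch (-0.01 for the change in WT and -0.0006 at 3 h), Ptpn6 at 3 h (-0.05) and the difference of the changes for Peli1 (-0.01) turned sign with the mean of all probes, and the naive difference of Itch was 0 in the deposited values, all within the array SD. Of the members' values under alternatives, 314 moved by less than the array SD of 0.18 and 36 by more. The 314 include every value under the stricter filter and under no filter. Those values could not move, because all member probes were well above background on all arrays. The mean of all probes could not move Rnf128, Ptpn22 or Dgkz either, which have a single probe each. The 314 therefore overstate how stable the values were. Cblb stayed past 2-fold in WT and between the genotypes at 3 h in 7 of 7 alternatives. Ptpn22 in WT and Dgka in both genotypes did so in 7 of 7. The difference of Ubash3a at 3 h passed in 5 of 7 and the change of Dgkz in Nr4a-TKO in 6 of 7. With an offset of 50 these were -0.90 for Ubash3a and -0.88 for Dgkz. These counts take in the stricter filter and no filter, which could not change them. For Ptpn22 and Dgkz the same holds for the mean of all probes. The counts also take in the processed intensity scaled to the 75th percentile and the authors' value table, whose values are nearly the same. With the deposited values the median change of the 10 genes in Nr4a-TKO was -0.48, and 1 gene, Cblb at 1.01, was more than 2-fold higher. The mean of all probes left 1 gene lower in WT, 1 lower at 3 h and 0 by the difference of changes, an offset of 50 left 1 lower at 3 h and 0 by the difference, and no background correction left 0 by the difference. At 1.5-fold there were 6 of 10 lower in WT, where 18.2% of all genes were, 1 higher and 5 lower in Nr4a-TKO (16.6% and 17.4%) and 3 lower by the difference (7.12%). At 3-fold there were 1 higher and 1 lower in WT (3.46% and 4.08%), 0 lower at 3 h (0.853%) and 0 by the difference (0.889%), since the threshold moved.

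Counts over all genes past 2-fold were 3442 for the change in WT, 3286 for that in Nr4a-TKO, 689 between the genotypes in naive cells and 729 at 3 h. An offset of 50 gave 1725, 1519, 166 and 155, since an offset shrinks differences of dim probes. No background correction gave 2184 in Nr4a-TKO, 296 in naive cells and 302 at 3 h. The stricter filter gave 342 in naive cells and 387 at 3 h, and no filter 1461 and 1474, as fewer or more dim genes entered. The deposited values gave 4348, 4092, 1052 and 1091. The processed intensity scaled to the 75th percentile, nearly the same values, gave 4318, 4075, 1010 and 1058. The cause of these higher counts was not tested. At 1.5-fold the 4 counts were 6885, 6790, 2005 and 2092, and at 3-fold 1476, 1290, 277 and 278. No paired analysis was possible because each group has 1 array.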
